A study of Jaculus jaculus with 13 samples.

Results

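The genes described here are 231 of the 24433 genes counted in whole kidney of the Lesser Egyptian Jerboa (Jaculus jaculus), and 13828 of the 24433 averaged at least 20 counts. They were chosen because their RNA was higher in dehydrated than in control animals and at about the dehydrated level in rehydrated animals. A gene was taken when every dehydrated (DHM) and every rehydrated (RHM) animal lay above every control (CM) animal, when the dehydration mean was at least 1.4 times the control mean, and when, of the dehydration and rehydration means, the smaller was at least 0.8 times the larger. Values are CPM, the count of a gene scaled to the total count of its animal and a library size of 1e6. The choice used all 3 contrasts between the groups, so the levels of these genes are a description, and nothing is read from their test calls given below.

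The animals were 13 wild-caught adult males housed singly on dry food: 4 controls with water, 4 without water for 11 days, and 5 without water for 7 days and then given water for 3 days. These lengths are those of the sample labels, and the methods of the study give other lengths for the dehydration and the rehydration groups. The groups are different animals, each sampled once, and dehydrated and rehydrated animals also differ in the time without water. No group was sampled after 7 days without water, so the level in rehydrated animals before water was returned is not known. The left kidney was sequenced whole, so that a change in the number of cells of a type and a change in RNA per cell cannot be told apart in any value below. Between 14071802 and 22949762 counts were assigned per animal, so that 3 counts amount to between 0.131 and 0.213 CPM. The kidney transcripts of the water channels AQP1 and AQP2 were measured in every animal, with AQP2 between 98.7 and 797 CPM. Depth was lower in the RHM animals (14071802 to 19267059 counts) than in controls (19801654 to 22949762 counts). RNA integrity was also lower in the rehydration group according to the study, and its part in the result was not tested. The dates on which the animals were caught differed and are not given in the labels, so their part in the result was not tested. According to the study, animals of each sex were assigned to the groups at random.

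A kidney that must save water concentrates the urine. Vasopressin places the water channel AQP2 in the membrane of collecting duct cells, and medullary cells take up organic osmolytes such as betaine to balance the salt around them. When water is drunk again these responses are withdrawn. The identifiers of the 231 genes are not paired with gene symbols in the sources used here. The 231 genes are therefore described by their position on the JacJac1.0 assembly, their levels and, where the study's supplement prints one, a functional term.

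Of the 13828 genes, 1583 (11.4%) had every DHM animal above every CM animal, and in 969 (7.01%) the RHM animals were above every CM animal as well. The rise reached 1.4 times the control mean in 665 of the 1583. In these 665 the rehydration mean was under 0.8 times the dehydration mean for 213 genes (32.0%), within the limits for 347 (52.2%) and above them for 105 (15.8%). The 231 genes are the part of the 347 in which no RHM animal reached down to the controls (34.7% of the 665). None of the 39 genes that the study names with an identifier met the other conditions of the rule, so none had to be left out for its name.

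The rise of the 231 genes was moderate. The dehydration mean was 1.4003 to 3.76 times the control mean, with a median of 1.603. It was at least 2 times the control mean in 49 genes and at least 3 times in 7, and in 114 genes it was under 1.6 times. After rehydration the level was 0.813 to 1.24 times the dehydration level, with a median of 1.05. In 134 of the genes both means lay within 10% of each other. The rehydration mean was the higher of the pair in 156 genes and the lower in 75. Compared with control, the rehydration mean was 1.23 to 3.74 times as high, with a median of 1.71.

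**Figure D1:**
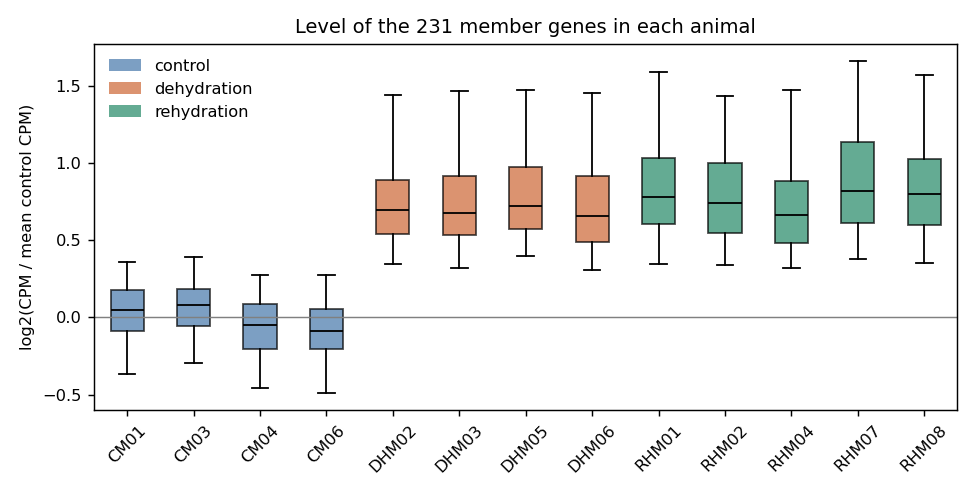
Level of the 231 genes in each animal, as log2 of the CPM over the mean control CPM of the gene. Boxes span the quartiles, lines are medians and whiskers leave out the 5% of the genes at either end. The 4 control medians lie between −0.09 and 0.08, the DHM medians between 0.66 and 0.72 and the RHM medians between 0.66 and 0.82.

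Medians of animals of the same group lay close together. The rule separates these animals from the controls and bounds the group means, so nothing is read from this. On the log2 scale relative to the control mean, the median over the 231 genes was 0.70 in DHM02, 0.68 in DHM03, 0.72 in DHM05 and 0.66 in DHM06. After rehydration it was 0.78 in RHM01, 0.74 in RHM02, 0.66 in RHM04, 0.82 in RHM07 and 0.80 in RHM08. The plot of levels by animal shows that RHM04 lay within the range of the dehydrated animals and that the other RHM medians lay above it. RHM07, the animal with the highest median, also had the lowest total count (14071802), and the part of depth in its level was not tested. RHM07 was the highest of all 13 animals for 45 of the genes, RHM01 for 40, RHM08 for 37 and DHM05 for 36.

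Summed over all 231 genes, the level was 10913 CPM ± 329 in controls (SD, n = 4), 17102 CPM ± 586 in dehydration (SD, n = 4) and 16732 CPM ± 591 in rehydration (SD, n = 5). A single gene held 3535 CPM of the control sum. Without that gene the sums were 7378 CPM ± 295, 12023 CPM ± 275 and 12377 CPM ± 610, so the order of dehydration and rehydration turned round. The difference between the dehydration and rehydration sums was smaller than 1 SD of the rehydration animals both with and without it. Without that gene the difference was larger than 1 SD of the dehydrated animals. The rule bounds the ratio of both means in each gene, so nothing is read from how close the sums are.

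CM01 and RHM01 stand apart from their groups in transcripts that the study assigns to an immune module. The 254 genes printed for that module, a list chosen on these samples, summed to 17608 CPM in CM01 and 13169 CPM in RHM01, against 2090 to 6333 CPM in the other animals. None of the 231 genes is among the 254. A gene high in CM01 could hardly meet the rule, which puts every DHM and RHM animal above every control, so nothing is read from this. The median level of the 231 genes was 0.05 in CM01, between the lowest and the highest control. Leaving out both animals, 400 genes met the rule, of which 212 are among the 231, and leaving out CM01 alone gave 364, of which 222 are.

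The members include 2 genes for which the supplement of the study prints a term. ENSJJAG00000019018 carries the term ribosomal subunit, a part of the machine that makes proteins from messenger RNA. It lies on scaffold JH725450.1 from 30317381 to 30377014 on the plus strand, with 378 exon bases in 3 exon blocks, and its exons overlap those of another annotated gene, so that its count is uncertain. Its level was 103, 107, 89.4 and 73.5 CPM in controls, 125, 141, 152 and 166 CPM in dehydration, and 133, 134, 144, 174 and 165 CPM in rehydration. The lowest dehydrated animal was 1.17 times the highest control, and the DHM and RHM ranges largely overlapped. Its means were 93.3 CPM ± 15.3 in controls (SD, n = 4), 146 CPM ± 17.3 in dehydration (SD, n = 4) and 149.9 CPM ± 18.3 in rehydration (SD, n = 5).

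ENSJJAG00000014308 carries the term cilium movement. Motile cilia bend by the sliding of microtubules driven by dynein motors, whereas the cilia of kidney tubule cells are mostly sensory. The gene lies on scaffold JH725452.1 from 20005500 to 20066734 on the plus strand, with 3291 exon bases in 18 blocks. Its RNA was scarce, at 0.589, 1.35, 1.15 and 1.01 CPM in controls, 2.79, 1.98, 3.23 and 2.61 CPM in dehydration, and 1.53, 2.23, 2.66, 2.98 and 1.37 CPM in rehydration. RHM08 and RHM01 came close to CM03, the highest control, while the other RHM animals lay in the dehydrated range. Its mean rehydration level was 0.813 times the dehydration level, close to the limit of 0.8, and fell outside it without DHM03 (0.750), RHM04 (0.766) or RHM07 (0.735).

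**Figure D2:**
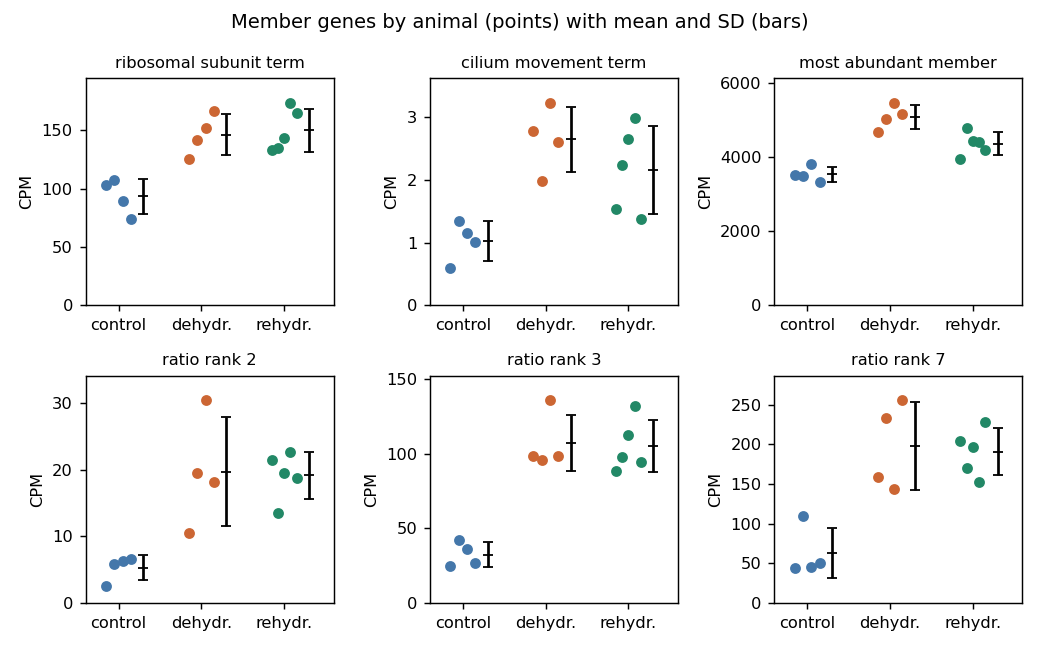
CPM by animal for 6 of the 231 genes, with points for animals and bars for mean and SD of control (n = 4), dehydration (n = 4) and rehydration (n = 5). The upper row shows the ribosomal subunit gene, the cilium movement gene and the most abundant gene, and the lower row the genes of rank 2, 3 and 7 by dehydration over control. In each panel all dehydrated and rehydrated animals lie above the controls, as the rule requires.

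The genes described next were picked after their values were seen, for a large rise with a mean count of at least 100, for abundance or for position. The gene at JH725452.1:15139160-15153446 (minus strand, 3789 exon bases, 12 blocks) had a dehydration mean 3.70 times the control mean. Its level was 2.49, 5.84, 6.30 and 6.62 CPM in controls, 10.6, 19.6, 30.4 and 18.2 CPM in dehydration, and 21.45, 13.5, 19.5, 22.7 and 18.7 CPM in rehydration. The dehydrated animals spread more widely than the rehydrated ones, with DHM02 lowest and DHM05 highest of all 13. Without DHM05 its rehydration mean was 1.19 times the dehydration mean, against 0.974 times with it.

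The gene at JH725567.1:4187379-4197626 (plus strand, 2175 exon bases, 11 blocks) showed the widest separation of the 231. Its level was 24.8, 42.3, 36.2 and 26.5 CPM in controls, 98.3, 96.0, 136 and 98.8 CPM in dehydration, and 88.5, 98.0, 113, 132 and 94.4 CPM in rehydration. The lowest DHM or RHM animal, RHM01, was 2.09 times the highest control. Its means were 32.4 CPM ± 8.26 in controls (SD, n = 4), 107 CPM ± 19.1 in dehydration (SD, n = 4) and 105 CPM ± 17.5 in rehydration (SD, n = 5).

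The gene at JH725457.1:2681329-2686000 (minus strand, 640 exon bases, 4 blocks) rose 3.17 times over the control mean. Its level was 44.2, 109, 45.1 and 50.8 CPM in controls, 158, 233.5, 144 and 255 CPM in dehydration, and 204, 170, 197, 153 and 228 CPM in rehydration. CM03 stood far above the other controls and was nearer to DHM05 than to them. Without CM03 the dehydration mean was 4.23 times the control mean. The gene at JH725479.1:115992-118135 (plus strand, 372 exon bases) had 6.08, 3.57, 6.30 and 4.85 CPM in controls, 17.9, 12.0, 10.6 and 13.6 CPM in dehydration, and 16.7, 12.0, 13.3, 11.8 and 10.3 CPM in rehydration. The DHM and RHM values of that gene covered nearly the same range, and the lowest of them was 1.63 times the highest control.

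The most abundant of the genes lies at JH725464.1:28209395-28233622 (minus strand, 2256 exon bases, 6 blocks), and its exons overlap those of another annotated gene. It had 3502, 3487, 3816 and 3334 CPM in controls, 4669, 5022, 5462.5 and 5162 CPM in dehydration, and 3948, 4789, 4442, 4415 and 4181 CPM in rehydration. All RHM animals but RHM02 lay below every DHM animal, and the lowest, RHM01, was 1.03 times the highest control. At 0.858 times the dehydration mean, the rehydration mean of this gene lay between those of the other groups. With TMM scaling its rise was 1.39 times, under the limit of 1.4. Per length it was also the most abundant of the 231, with 1567 CPM per kilobase of exon in controls and 2251 in dehydration.

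The gene at JH725508.1:10594155-10609373 (plus strand, 1412 exon bases), whose exons also overlap another gene, had like means in dehydration and rehydration. It had 352, 415, 322 and 413 CPM in controls, 779, 693, 907 and 758 CPM in dehydration, and 744, 722, 633, 833 and 987 CPM in rehydration. The mean rehydration level was 0.9995 times the dehydration mean, and the lowest animal, RHM04, was 1.53 times the highest control. The gene at JH725530.1:5908976-5927379 (plus strand, 2023 exon bases) had 375, 397, 302 and 312 CPM in controls, 474, 463, 540 and 487 CPM in dehydration, and 556, 506, 496, 481 and 476 CPM in rehydration. Both of its elevated groups lay within 463 to 556 CPM. Its rise fell under the limit of 1.4 without CM04 (1.36), CM06 (1.37) or DHM05 (1.37), and with TMM scaling (1.38).

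A single gene of the mitochondrial genome met the rule, of 28 with a mean count of at least 20. It is a gene of 68 bases on the minus strand (MT:14099-14166). That is shorter than the full read length of the study, and reads were counted without regard to strand. The count may therefore hold RNA of adjoining mitochondrial genes, which was not tested. It had 9.79, 10.1, 9.67 and 9.95 CPM in controls, 16.0, 10.9, 17.99 and 26.7 CPM in dehydration, and 22.1, 24.9, 19.7, 15.3 and 19.8 CPM in rehydration. The controls agreed closely (SD 0.19 CPM), while DHM03 was only just above them and DHM06 was the highest of all animals. Without DHM06 the rehydration mean was 1.36 times the dehydration mean, which is outside the limits.

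Of the 231 genes, 38 were under 5 CPM in dehydration, 160 were at 5 to 100 CPM and 33 were above 100 CPM. The median ratio of dehydration to control was 1.90 in the scarce genes, 1.59 in the middle class and 1.54 in the abundant ones. The rule used these ratios, and a gene whose animals spread more needs a larger one to meet it, so nothing is read from this order. The largest ratio, 3.76, belonged to a gene at JH725475.1:15519284-15522848 with 0.408, 0.871, 0.144 and 0.253 CPM in controls and 2.84, 1.46, 1.09 and 0.903 CPM in dehydration. CM03 was the highest control and only just below DHM06, and without CM03 the ratio was 5.87. Without DHM02, the highest dehydrated animal, it was 2.75 and the rehydration mean was 1.27 times the dehydration mean, outside the limits. The gap, the lowest DHM or RHM animal over the highest control, had medians in these classes of 1.095, 1.131 and 1.164. The median ratio of rehydration to dehydration was 1.08 in the scarce, 1.05 in the middle and 1.00 in the abundant genes.

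**Figure D3:**
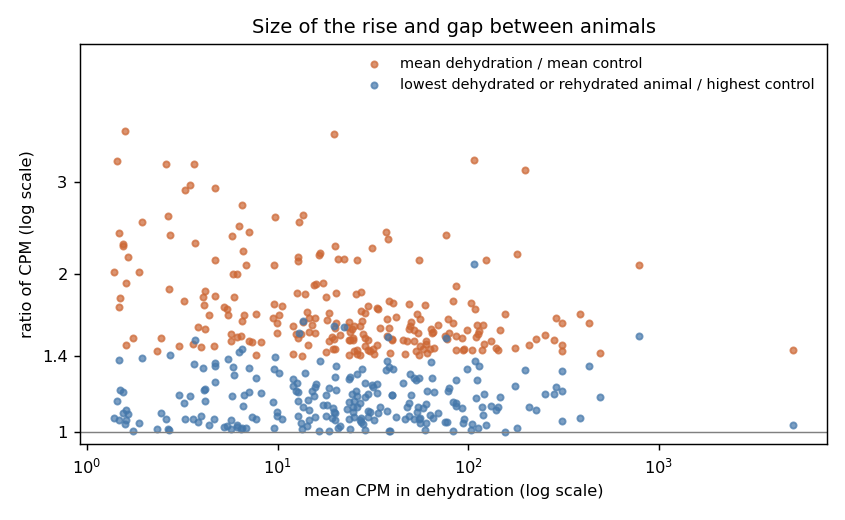
Ratios of CPM for each of the 231 genes against the mean CPM in dehydration, all on log scales. Upper points give mean dehydration over mean control, and lower points the lowest DHM or RHM animal over the highest control. The gap between animals was under 1.1 in 93 genes and reached 2 in 1 gene.

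Separation between animals was therefore narrow for many of the genes. The gap was under 1.1 in 93 of the 231, at least 1.4 in 12 and at least 2 in 1, and its median was 1.13. The rule also bears on the spread within groups, so the spread is given with nothing read from it. The median coefficient of variation was 14.3% in controls, 13.6% in dehydration and 15.9% in rehydration, against 13.4%, 12.5% and 17.2% over the 13828 genes. Whichever single animal was left out, 137 of the 231 genes met the rule.

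In edgeR's quasi-likelihood fit of all 15064 genes that averaged 8 counts or more, called at a Benjamini-Hochberg adjusted p-value of 0.01, 22 of the 231 were called higher in dehydration than in control (0.312% of all genes tested were). In rehydration compared with control, 196 of the 231 were called higher (12.5% of all genes) and 218 with DESeq2 (17% of the genes with an adjusted p). Leaving out 1 animal gave from 150 without CM06 (8.93% of all genes) to 194 without DHM05 (10.7% of all genes). Over these fits the share of all genes was 8.63% to 12.0%. When edgeR took animal numbers as a block, 31 were called higher in rehydration (1.48% of all genes) and 0 in dehydration (0% of all genes, with 197 of the 231 at an unadjusted p-value under 0.05). The block leaves little from which to estimate the spread, so fewer calls there do not show smaller differences. Between rehydration and dehydration none of the 231 was called (8.19% of all genes, in either direction), 18 had an unadjusted p-value under 0.05 (37.9% of all genes), and DESeq2 called 4 (19.8% of the genes with an adjusted p). The rule used these same contrasts, so nothing is read from these counts. The count of 22 ranged from 0 without CM06 or without DHM05 to 43 without RHM01 (0.585% of all genes in that fit), and was 150 with DESeq2 (2.98% of the genes with an adjusted p). It was 6, 8 and 1 without CM01, CM03 and CM04 (0.12%, 0.133% and 0.0266% of all genes). It was 5, 2 and 2 without DHM02, DHM03 and DHM06 (0.0598%, 0.0531% and 0.0399%), and 7 without RHM08 (0.113%). All 231 fitted log2 fold changes between dehydration and control were above 0 in each of the alternative fits. Their median was 0.63, against 0.00 over all genes tested, and for rehydration compared with control it was 0.76, against 0.03. The rule all but fixes these signs and asks for a rise, so nothing is read from the signs or medians either.

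Among the 231 genes, 5 had every RHM animal above every DHM animal (8.69% of the 13828 genes did), and in none was every RHM animal below every DHM animal (14.1% did). The limits on the level after rehydration leave out such genes only where the group means lie too far apart. The counts are given as a description.

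Genes near the limits, leaving out those the study names, show how fine the choice is. At the limit of 1.4 the nearest gene inside had a ratio of 1.40026, from 9.60 CPM to 13.4 CPM, and the nearest outside 1.39797, from 19.1 CPM to 26.7 CPM. At 0.8 the nearest inside was 0.813, from 12.8 CPM in dehydration to 10.4 CPM in rehydration, and the nearest outside 0.797, from 93.9 CPM to 74.8 CPM. At the upper limit they were 1.24287 (12.96 CPM to 16.1 CPM) and 1.25014 (25.0 CPM to 31.3 CPM). At a mean count of 20 they were 21.5 and 19.9 counts.

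Genes that the study names, all outside the 231, show other patterns over the groups. Of the 35 with a mean count of at least 20, 9 had every DHM animal above every CM animal and a ratio of at least 1.4. Of these 9, the rehydration mean of 8 was under 0.8 times the dehydration mean. AQP3, the water channel of the basolateral side of the collecting duct, had 42.3, 97.8, 51.8 and 66.6 CPM in controls, 194, 168, 284 and 239 CPM in dehydration, and 56.9, 68.1, 65.2, 65.2 and 85.8 CPM in rehydration. All of its RHM animals lay within the control range. In edgeR its log2 fold change from dehydration to rehydration was −1.66 (SE 0.23, adjusted p = 0.00137), with 5.50e-10 to 0.166 over the alternatives, the upper value with the animal number as a block.

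SLC6A12, the betaine and GABA transporter of medullary cells, was the single gene of the 9 in which all RHM animals also lay above every control. It had 25.9, 28.5, 26.0 and 22.02 CPM in controls, 97.2, 59.8, 98.8 and 79.2 CPM in dehydration, and 39.7, 39.9, 37.7, 63.7 and 39.8 CPM in rehydration. Its RHM animals lay between both other groups, with RHM07 above DHM03. The log2 fold change in edgeR from dehydration to rehydration was −0.89 (SE 0.17, adjusted p = 0.00407, 2.90e-05 to 0.152 over the alternatives). That call was lost without DHM02, DHM05, DHM06, RHM04 or RHM08, with an adjusted p of 0.0111 to 0.0166. The log2 fold change in edgeR from control to rehydration was 0.77 (SE 0.17, adjusted p = 0.00285, 7.59e-05 to 0.0907 over the alternatives), a call lost without CM01 or CM06, with an adjusted p of 0.0101 to 0.0114. In both comparisons the upper value over the alternatives is that with the animal number as a block.

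SCNN1G, the gamma subunit of the epithelial sodium channel that reabsorbs sodium in the distal nephron, came nearest to the 231 genes. It had 69.9, 87.5, 77.0 and 79.99 CPM in controls, 93.6, 111, 114 and 121 CPM in dehydration, and 118, 130, 164, 110 and 113 CPM in rehydration. Every DHM and RHM animal was above every control, but the dehydration mean was 1.398 times the control mean. The log2 fold change in edgeR was 0.44 for dehydration compared with control (SE 0.14, adjusted p = 0.0778) and 0.68 for rehydration compared with control (SE 0.13, adjusted p = 0.00137, 9.10e-06 to 0.00662 over the alternatives).

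**Figure D4:**
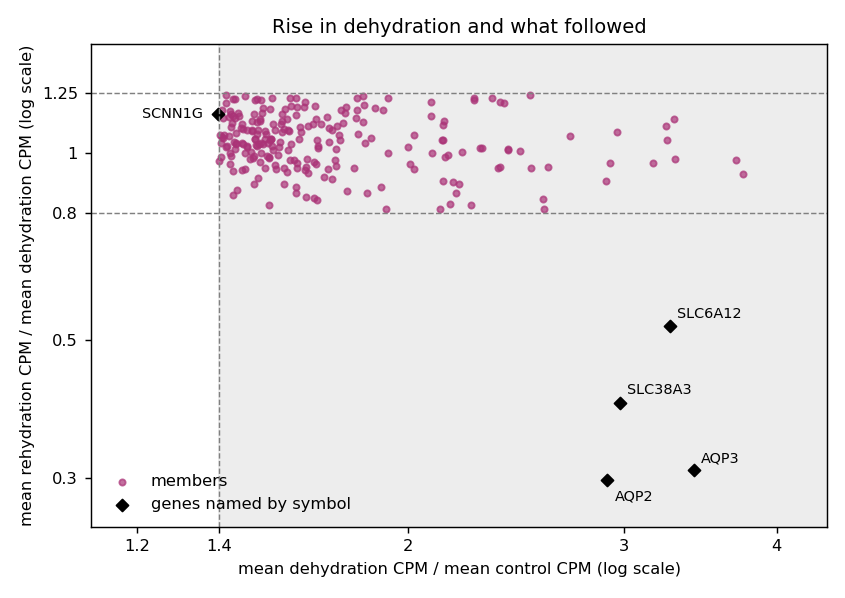
Mean dehydration over mean control CPM against mean rehydration over mean dehydration CPM, on log scales, for the 231 genes (circles) and 5 genes that the study names (diamonds). Dashed lines are the limits of the rule. AQP2, AQP3, SLC38A3 and SLC6A12 lie below 0.8 and SCNN1G lies at the edge of 1.4.

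The 231 genes lay on 106 scaffolds. Their median exon length was 1551 bases, against 1349 over the 13828 genes, and the median number of exon blocks was 9 against 8. Their median span on the scaffold was shorter, at 14018 bases against 18095, and no difference in structure was tested. Single-block genes made up 5.63% of the 231 and 5.64% of the 13828, and genes under 500 bases 9.52% and 12.2%. In 5 of the 231 exons overlapped another annotated gene (2.16%, against 2.27%). The smoothed log2 offset of counts at a length of 4000 bases was −0.24 in RHM01, −0.0017 in RHM02, −0.13 in RHM04, −0.07 in RHM07 and −0.16 in RHM08, against 0.04 to 0.12 in controls and 0.01 to 0.16 in dehydrated animals. At 500 bases it was 0.03 to 0.07 in the RHM animals, −0.03 to 0.02 in the DHM animals and −0.12 to −0.01 in controls. With an offset for length in each animal 244 genes met the rule, of which 205 are among the 231.

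Of the 231 genes, 25 had another of them within 100 kilobases (10.8%), and 903 of the rest of the 13828 had such a neighbour (6.64%). They formed 13 pairs, of which 6 lay on the same strand, 6 converged and 1 diverged. Reads were counted without regard to strand, and the part of reads that run past the end of a converging gene was not tested.

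The closest pair converged on scaffold JH725512.1, with 911 bases between the genes at 6588466 to 6589870 and at 6590782 to 6606465. The first of them was scarce, with 0.685 CPM in controls, 1.55 CPM in dehydration and 1.89 CPM in rehydration, and the second had 40.6, 59.9 and 61.4 CPM. In the second gene DHM03 (48.1 CPM) was only just above CM03 (46.1 CPM). Without RHM07 the rehydration mean of the first gene was 1.36 times its dehydration mean, and it was also outside the limits without DHM02 (1.29), DHM05 (1.31) or RHM02 (1.28). The dehydration mean of the second gene fell under the limit of 1.4 without CM06 or DHM02, at 1.38 times the control mean in both cases.

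On scaffold JH725542.1 converging genes at 7684300 to 7690745 and at 7691700 to 7714100 were 954 bases apart. The first had 11.7, 16.2, 16.6 and 16.9 CPM in controls, 54.9, 44.1, 22.2 and 27.1 CPM in dehydration, and 24.7, 31.2, 37.9, 53.6 and 41.1 CPM in rehydration. Its dehydrated animals fell into a higher pair, DHM02 and DHM03, and a lower pair, DHM05 and DHM06. The second had 2.54, 3.14, 3.27 and 3.74 CPM in controls, 7.24, 5.46, 5.11 and 3.96 CPM in dehydration, and 3.98, 3.84, 6.98, 4.76 and 11.5 CPM in rehydration. DHM02 was again the highest dehydrated animal, whereas RHM08 was the highest rehydrated animal in place of RHM07. The rehydration mean of the second gene was 1.28 times the dehydration mean without DHM02 and 1.253 times without RHM02, both outside the limits.

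On scaffold JH725452.1 genes at 24449582 to 24451420 and at 24454015 to 24463979, both on the plus strand, were 2594 bases apart. The first had 1.43 CPM in controls, 2.69 CPM in dehydration and 3.19 CPM in rehydration, and without DHM06 its rehydration mean was 1.44 times the dehydration mean, outside the limits. The second had 22.8, 24.3, 21.1 and 22.9 CPM in controls, 46.8, 38.7, 32.0 and 42.9 CPM in dehydration, and 43.4, 45.2, 43.4, 46.0 and 57.1 CPM in rehydration. Apart from RHM08 the rehydrated animals of the second gene lay within the dehydrated range.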

How the data were processed

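Poly-A RNA of the left kidney was sequenced in paired ends. Per the file headers and the study's methods, the authors trimmed reads with BBDuk, aligned them with Rsubread to JacJac1.0 and assigned them to Ensembl genes with featureCounts 1.6.2 without strand. The deposited values are raw counts per gene. The submitters' processing notes also name FastQC 0.11.5 and DESeq2 1.36.0. Groups came from the sample labels, and 2 per-sample columns that match no label were not used.

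CPM was the count over the column sum. The 231 genes and all lists were chosen with earlier results of these data known. Counts of all 13 animals were fitted together in R 4.3.3 with edgeR 4.0.16 (TMM, mean count of at least 8, quasi-likelihood test, Benjamini-Hochberg adjustment over 15064 genes, threshold 0.01). DESeq2 1.42.0 was an alternative, as were other scaling, filters, limits of the rule, a length offset (statsmodels 0.14.6, smoothing span 0.3), a block for the animal number and leaving out animals. The methods were tested on simulated data. Each animal is 1 replicate, and precision rests on the spread between animals. Floors of 3 counts cover counting error only.

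Symbols, promoters, proteins and sequences of the 231 genes were not analysed here, since the sources used here pair only the genes that the study names with symbols. The planned naming rule for genes with a symbol, the function lists, the cell type markers and the promoter motifs were therefore not applied. The genes printed were chosen after their values were seen: those with a term in the study's supplement, the largest rise of all, the 4 with the largest rise among those with a mean count of at least 100, the 3 most abundant, those within 3 kilobases of another of the 231, and the mitochondrial gene. Figures were drawn with matplotlib 3.10.9.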

Additional observations from a re-analysis of the deposited data

Results flagged for a closer look

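In the values by animal of the printed genes and sums, 72 groups were examined for an animal far from the rest of its group, and chance alone gives about 1 such animal in 20 groups. The summed level of the 254 immune module genes stood apart in CM01 (17608 CPM, the next control 3333 CPM) and in RHM01 (13169 CPM, the next rehydrated animal 3516 CPM). The gene at JH725567.1:4187379-4197626 was high in DHM05 (136 CPM, the next 98.8 CPM), and the gene at JH725457.1:2681329-2686000 was high in CM03 (109 CPM, the next control 50.8 CPM). The gene at JH725542.1:7684300-7690745 was low in CM01 (11.7 CPM, the next control 16.2 CPM). On scaffold JH725452.1 the gene at 24449582 to 24451420 was high in RHM04 (4.49 CPM, the next 2.98 CPM), and the gene at 24454015 to 24463979 was high in RHM08 (57.1 CPM, the next 46.0 CPM). SLC6A12 was high in RHM07 (63.7 CPM, the next 39.9 CPM).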

How the results depend on the processing

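The number of genes that met the rule was 231, and 505 with a limit of 1.2 for the rise, 49 with a limit of 2, 359 with no limit on the level after rehydration, 400 without CM01 and RHM01, and 22 with edgeR calls in both comparisons with control in place of animals that do not overlap, a setting chosen after seeing the data. Leaving out 1 animal gave 236 to 364, of which 202 to 224 are among the 231. TMM scaling gave 180 (172 of them among the 231), DESeq2 size factors 172 (158 among them), and mean counts of at least 8 and 50 gave 247 and 210. DEGs between dehydration and control numbered 72, and 958 with DESeq2, 894 at an adjusted p of 0.05, 141 without CM01 and RHM01 and 1 to 235 without 1 animal (37, 46, 6 and 1 without CM01, CM03, CM04 and CM06, 18, 11, 2 and 7 without DHM02, DHM03, DHM05 and DHM06, 235 and 23 without RHM01 and RHM08). Between rehydration and control they numbered 4331, and 6563 at 0.05 and 3334 to 4491 without 1 animal. Between rehydration and dehydration they numbered 1233, and 2785 with DESeq2, 3614 at 0.05 and 380 to 2005 without 1 animal (380, 525, 467 and 420 without DHM02, DHM03, DHM05 and DHM06, 2005, 717, 627 and 407 without RHM02, RHM04, RHM07 and RHM08). The cause was not tested.

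With the animal number as a replicate block edgeR called 0 genes between dehydration and control (3110 at an unadjusted p under 0.05), 987 between rehydration and control and 0 between rehydration and dehydration (2823 unadjusted). No other animal shares the number of DHM05, RHM07 or RHM08, so that fit draws no group difference from these animals. The block also leaves little from which to estimate the spread, so the lack of calls does not show that the groups are alike. Same-numbered animals had correlations of −0.02 to 0.34 over 5 pairs (mean 0.119, against −0.01 for other animals of different groups), highest for CM01 and RHM01. Pairs with different numbers reached 0.285 (DHM03 and RHM01) and 0.268 (CM01 and DHM03). No label says that a number marks a shared origin. Function lists could not be matched to the identifiers, and their counts of calls were not run under any setting. Genes near 3 counts, 4 or 5 animals a group and limits that many genes lie close to bound what the choice of genes can show.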
